A study of Mus musculus with 33 samples.

Results

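*Coro2a*, *Trim14*, *Tbc1d2* and *Nans* are 4 of the 55376 gene symbols counted in total RNA-seq of blood progenitors from old mice, and they lie side by side on mouse chromosome 4. The genes were chosen by their symbols, with results of these data in view: *Coro2a* and *Trim14* had lower levels in hematopoietic stem cells (HSCs) after nicotinamide riboside (NR), and *Tbc1d2* and *Nans* were added as the genes that flank them. The NR contrast in the HSCs of cohort 2 therefore chose the genes and is described below without a test, and the O-WT HSCs of cohort 2 enter the comparisons between cell types as well, where *Coro2a* and *Trim14* in HSCs are again given without a test. The NR comparisons in CLPs, GMPs and cohort 1 used libraries that the choice did not use. All 4 genes passed the filter on low counts in every comparison.

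Besides HSCs, the study sorted progenitors of the lymphoid branch (common lymphoid progenitors, CLPs) and of the myeloid branch (granulocyte-monocyte progenitors, GMPs) from bone marrow of old C57BL/6 wild-type males, 24 to 29 months old. One label field calls the GMP libraries common myeloid progenitors, whereas their titles and the paper name GMPs, the name used here. Untreated old mice (O-WT) were compared with old mice given NR, a precursor of NAD+, in drinking water for 4 to 6 weeks (O-NR). In cohort 2 each of the 3 cell types had 4 O-WT and 4 O-NR libraries. Cohort 1 held HSCs only, with 2 O-WT libraries, 4 O-NR libraries and 3 libraries of mice taken off NR for 2 months (O-NR-RC). HSCs were gated as lineage-negative, cKit+, Sca1+, CD34-, Flk2- and CD150+ cells, so they were selected on CD150, the product of *Slamf1*. Neither the labels nor the methods state that each library is 1 mouse, so p-values measure the spread between libraries, part of which may be technical. In bulk RNA, fewer cells with a transcript and less transcript per cell cannot be told apart.

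The 4 genes encode proteins with unrelated roles. *Coro2a* encodes a coronin, a WD-repeat protein that binds actin and is found with the NCoR corepressor complex, which silences genes together with the deacetylase HDAC3. *Trim14* encodes a tripartite-motif protein that lacks the RING domain of most of its family and acts at the mitochondrial adaptor MAVS and on the DNA sensor cGAS in antiviral signaling. *Tbc1d2* encodes Armus, a GTPase-activating protein that switches off RAB7, the small GTPase of late endosomes and lysosomes. *Nans* encodes the synthase that makes phosphorylated sialic acid, the sugar that caps many glycans on blood cell surfaces.

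In the mouse assembly GRCm38 (mm10), *Nans* (ENSMUSG00000028334.10) occupies chromosome 4 from 46489248 to 46503632 on the plus strand. The other 3 genes are on the minus strand, *Trim14* (ENSMUSG00000039853.18) from 46493781 to 46536141, *Coro2a* (ENSMUSG00000028337.14) from 46536937 to 46602202 and *Tbc1d2* (ENSMUSG00000039813.14) from 46604390 to 46650209. *Trim14* and *Coro2a* are 795 bases apart, and *Coro2a* and *Tbc1d2* 2187 bases. *Nans* and *Trim14* overlap over 9852 bases on opposite strands and share 1356 exonic bases. The library kit keeps strand, but the sources used here do not give the strand setting of the counting, so reads of the shared exons could have entered either count. The antisense transcript *Gm16731* overlaps 163 exonic bases of *Trim14* and 329 of *Coro2a*, and its mean level was between 0.66 and 2.13 CPM (counts after scaling a library's total to 1000000) in the 9 groups.

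The promoter windows are shown so that the start sites of the adjacent genes *Coro2a* and *Tbc1d2*, whose levels are compared below, can be set side by side. RefSeq (GRCm38.p6) gave 2 start sites for *Coro2a* and 1 for *Tbc1d2* in windows of 300 bases, and *Trim14* and *Nans* had no window in the table. Capitals mark matches on either strand to the GC box GGGCGG, to the ETS core CCGGAA or to their reverse complements, and neighbouring GC boxes can share a base. The first *Coro2a* window (chr4:46601880-46602179) is at the outer start site, the second (chr4:46566391-46566690) is inside the gene, and the *Tbc1d2* window is chr4:46650150-46650449, all read on the minus strand.
*Coro2a* outer start: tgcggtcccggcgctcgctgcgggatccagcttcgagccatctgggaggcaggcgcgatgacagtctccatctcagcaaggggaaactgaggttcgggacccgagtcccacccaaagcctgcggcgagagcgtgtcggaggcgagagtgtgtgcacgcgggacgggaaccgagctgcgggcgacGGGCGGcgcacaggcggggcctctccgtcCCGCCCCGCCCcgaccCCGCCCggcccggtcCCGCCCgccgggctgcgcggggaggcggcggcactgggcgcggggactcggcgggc
*Coro2a* inner start: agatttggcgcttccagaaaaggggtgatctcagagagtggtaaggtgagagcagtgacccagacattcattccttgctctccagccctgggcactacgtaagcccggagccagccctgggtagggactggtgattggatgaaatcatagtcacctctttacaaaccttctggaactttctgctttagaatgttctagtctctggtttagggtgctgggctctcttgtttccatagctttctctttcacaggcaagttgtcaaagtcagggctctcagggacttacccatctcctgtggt
*Tbc1d2*: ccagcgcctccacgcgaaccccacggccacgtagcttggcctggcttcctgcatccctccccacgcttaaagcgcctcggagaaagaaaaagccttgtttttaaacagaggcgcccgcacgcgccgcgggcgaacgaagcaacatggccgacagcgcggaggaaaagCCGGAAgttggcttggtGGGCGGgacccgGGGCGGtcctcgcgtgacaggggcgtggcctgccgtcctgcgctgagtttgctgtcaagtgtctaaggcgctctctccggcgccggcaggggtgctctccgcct

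The outer *Coro2a* window held 76.0% G and C and 5 GC boxes, the *Tbc1d2* window 66.3% with 2 GC boxes and 1 ETS core, and the inner *Coro2a* window 50% with neither motif. Over all promoters of the table the median G and C content was 52.7%, 35.7% held a GC box and 14.9% an ETS core. The E-box CACGTG, the TATA box TATAAA and the cyclic AMP response core TGACG were in none of the 3 windows. The inner *Coro2a* window held 1 match to the interferon-response core GAAANNGAA, which 8.56% of promoters hold, and 1 CCAAT box, which 37.4% hold. The counts are per gene and do not tell which start site was used.

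Libraries held 4792380 to 23816042 counted reads (median 11998451), so that even the least abundant of the genes, *Tbc1d2* in CLPs, rested on 49 to 100 reads per library. Levels are plain CPM, while differences are log2 changes fitted by edgeR with TMM scaling, which corrects for libraries dominated by other transcripts. Markers were in their place: the stem cell transcription factor *Hlf* was at 432 to 531 CPM in HSCs of cohort 2, 9.76 to 20.2 CPM in CLPs and 10.01 to 21.1 CPM in GMPs. The summed CPM of 5 CLP markers was 2260 to 3855 in CLPs and at most 91.4 elsewhere, and that of 5 GMP markers 17200 to 19850 in GMPs and at most 566.5 elsewhere. Transcripts of 1736 olfactory and vomeronasal receptor genes, best known from sensory neurons of the nose, summed to 832 to 8004 CPM in cohort 2 and to 4281 to 14710 CPM in the HSCs of cohort 1.

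The level of *Coro2a* in HSCs of cohort 2 was 131, 122, 112 and 117 CPM in the O-WT libraries and 55.0, 59.6, 58.9 and 80.0 CPM in the O-NR libraries. All O-NR libraries were below all O-WT libraries, and the fitted log2 change was -0.88 (SE 0.13, n = 4 and 4), which is 0.543 of the O-WT level. *Trim14* had 73.8, 54.3, 58.9 and 66.2 CPM in O-WT and 47.4, 41.7, 44.9 and 42.6 CPM in O-NR. Its groups did not overlap either, and its fitted log2 change was -0.48 (SE 0.13). After TMM scaling the *Coro2a* libraries stayed apart, at 87.9 to 156 scaled CPM in O-WT and 47.0 to 79.3 in O-NR, whereas those of *Trim14* overlapped, at 39.1 to 87.5 and 32.8 to 54.9.

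The flanking genes moved less. *Tbc1d2* had 30.4, 29.4, 29.3 and 27.8 CPM in O-WT HSCs and 22.1, 26.6, 26.1 and 21.5 CPM in O-NR HSCs of cohort 2. The libraries did not overlap in plain CPM, with a narrow gap between 26.6 and 27.8, and they overlapped after TMM scaling. The fitted log2 change was -0.23 (SE 0.12). *Nans*, on the other strand, had 25.3, 27.6, 30.5 and 29.1 CPM in O-WT and 27.8, 22.7, 23.4 and 33.2 CPM in O-NR, so its groups overlapped, and the fitted log2 change was -0.02 (SE 0.14). In plain CPM, O-NR libraries were below every O-WT library for 3 of the 4 genes and for 1.58% of the 17364 genes with counts above the filter, but this is the contrast that chose *Coro2a* and *Trim14*, and nothing is read from the count.

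**Figure D1:**
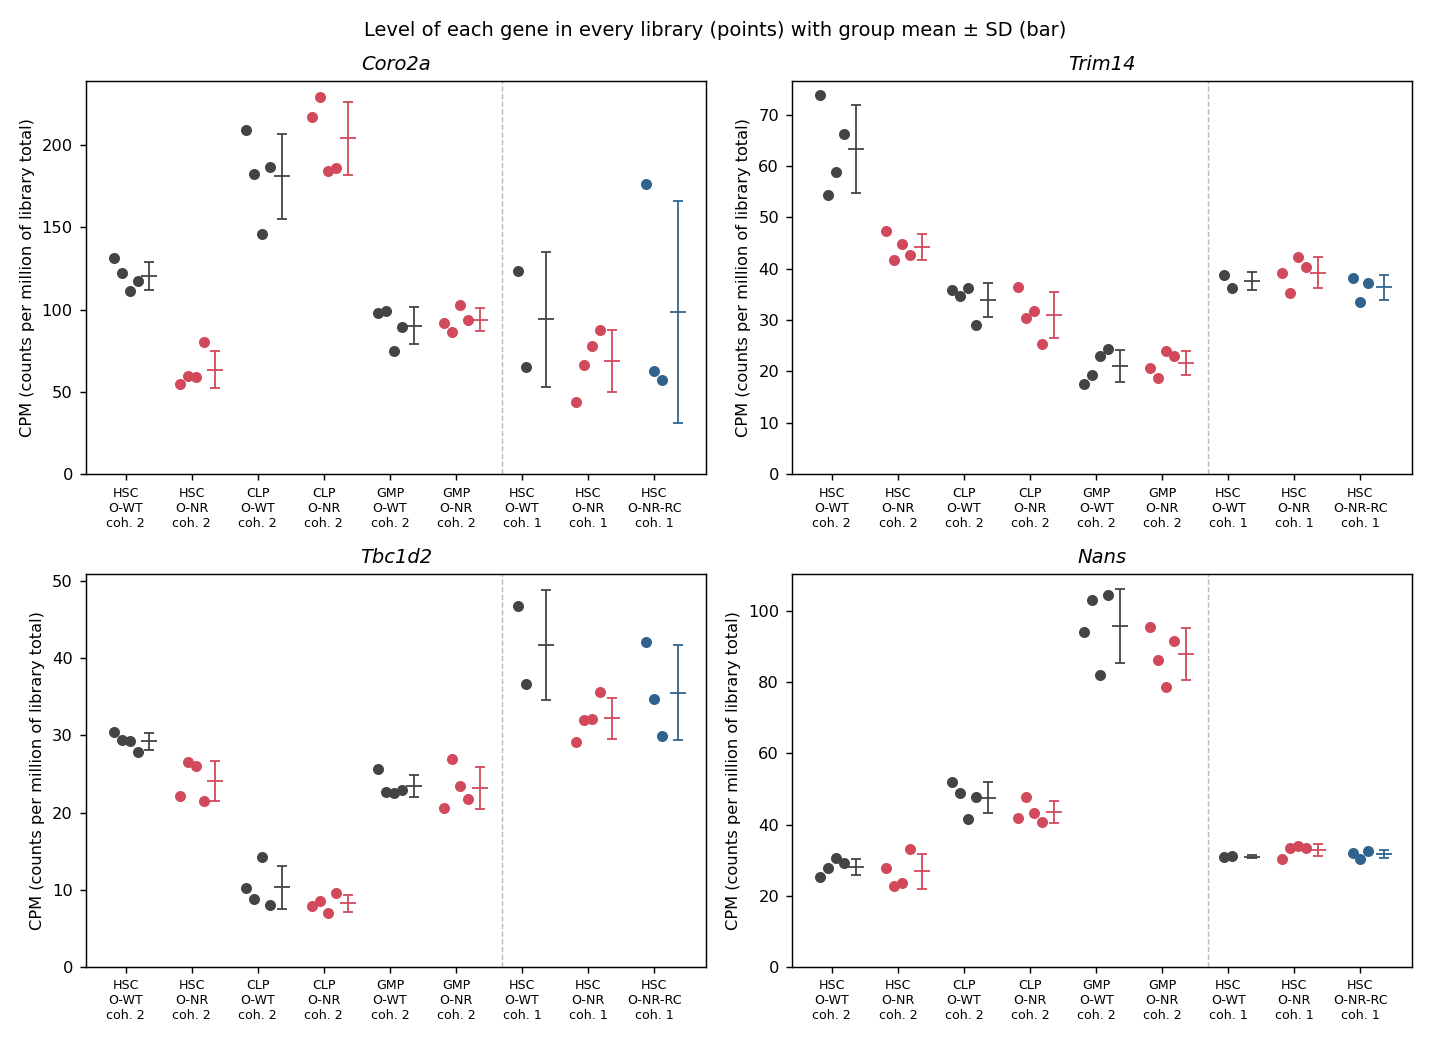
Level of *Coro2a*, *Trim14*, *Tbc1d2* and *Nans* in CPM (vertical axis, from 0) in every library of the 9 groups (horizontal axis, cell type, treatment and cohort); points are libraries and the bar beside them is the group mean ± SD. *Coro2a* in O-NR HSCs of cohort 2 (55.0 to 80.0 CPM) sits below the O-WT HSCs (112 to 131 CPM), while O-WT and O-NR points of CLPs and GMPs overlap for every gene.

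B cell transcripts also differed between the HSC groups of cohort 2. The summed CPM of 8 B and plasma cell markers had a median of 198 over the O-WT libraries (lowest 77.2, highest 735) against 44.8 over the O-NR libraries (lowest 25.1, highest 125), and their most abundant member, *Ighm*, was 18.0 to 415 CPM in O-WT and 1.70 to 15.0 CPM in O-NR. No listed B cell marker was at 0 over a group. The O-WT libraries with B cell sums of 158.7, 77.2, 237.5 and 735 CPM had 131, 122, 112 and 117 CPM of *Coro2a*. The O-NR libraries with sums of 125, 27.0, 62.6 and 25.1 CPM had 55.0, 59.6, 58.9 and 80.0 CPM of it. The part of these transcripts in the result was not tested. The receptor transcripts were 1441 to 4494 CPM in O-WT and 1488 to 3687 CPM in O-NR of these HSCs.

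In CLPs, which lead to lymphocytes, none of the 4 genes differed between O-NR and O-WT beyond the spread of the libraries. *Coro2a* had 209, 183, 146 and 187 CPM in O-WT and 217, 229, 184 and 186 CPM in O-NR. The fitted log2 change was 0.28 (SE 0.22), with an adjusted p of 1.00 in edgeR's quasi-likelihood test. The lowest value, 146 CPM, came from the smallest library, which also had the highest receptor sum (8004 CPM), and without it the change was 0.13. *Trim14* had 29.02 to 36.3 CPM in O-WT and 25.4 to 36.4 CPM in O-NR (log2 change 0.00, SE 0.18). *Tbc1d2* had 7.96 to 14.2 and 6.97 to 9.50 CPM (-0.16, SE 0.30), and *Nans* 41.5 to 51.9 and 40.8 to 47.8 CPM (-0.02, SE 0.19). Among the 19909 genes tested, 0.412% had an unadjusted p below 0.01, and 0 of the 4 genes did.

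In GMPs, which lead to granulocytes and monocytes, the spread was smaller and the groups again overlapped. *Coro2a* had 98.2, 99.0, 74.8 and 89.3 CPM in O-WT and 91.9, 86.2, 103 and 93.9 CPM in O-NR. The fitted log2 change was 0.03 (SE 0.09, adjusted p = 0.997 in edgeR's quasi-likelihood test). *Trim14* changed by 0.02 (SE 0.12) and *Tbc1d2* by -0.04 (SE 0.10). *Nans* had the largest of these differences, with 82.0 to 105 CPM in O-WT and 78.7 to 95.7 CPM in O-NR (-0.15, SE 0.09, adjusted p = 0.997 in edgeR). An unadjusted p below 0.01 was found for 0.986% of 13486 genes and for 0 of the 4. The difference of the NR effect between GMPs and CLPs, tested as an interaction over 16 libraries, was -0.28 (SE 0.25) for *Coro2a*, 0.00 (SE 0.22) for *Trim14*, 0.09 (SE 0.25) for *Tbc1d2* and -0.14 (SE 0.23) for *Nans*, with adjusted p of 0.993 or above in edgeR. HSCs were left out of that test because their contrast chose the genes.

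The 9 HSC libraries of cohort 1 were a second set with and without NR. *Coro2a* had 123 and 65.1 CPM in O-WT, 44.0, 66.1, 78.0 and 87.7 CPM in O-NR, and 177, 62.4 and 57.2 CPM in O-NR-RC. The 2 O-WT libraries differed more from each other than the group means did, and the fitted change with NR was -0.51 (SE 0.70, adjusted p = 1.00 in edgeR's quasi-likelihood test). Leaving out the O-WT library at 123 CPM turned it to 0.13, with the lone O-WT library then assumed to vary like the other groups. In plain CPM *Trim14* was level in this cohort, with 38.8 and 36.3 in O-WT, 35.2 to 42.2 in O-NR and 33.5 to 38.2 in O-NR-RC. Its fitted change with NR was -0.02 (SE 0.39). Its O-WT level in cohort 1 was below the 54.3 to 73.8 CPM of the O-WT HSCs of cohort 2. No fit was made across the cohorts.

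*Tbc1d2* in cohort 1 had 46.8 and 36.7 CPM in O-WT and 29.2, 32.0, 32.1 and 35.7 CPM in O-NR, which did not overlap, as was so, in this direction, for 3.03% of the 33350 genes tested. After TMM scaling the libraries overlapped, and the fitted change was -0.46 (SE 0.42, adjusted p = 1.00 in edgeR). The O-NR-RC libraries had 42.1, 34.7 and 29.9 CPM. *Nans* lay between 30.3 and 34.0 CPM in all 9 libraries (-0.01, SE 0.36). In this cohort 0.048% of genes had an unadjusted p below 0.01 with NR, and 0 of the 4 did.

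Withdrawal of NR gave no difference that passed the test. O-NR-RC minus O-NR was 0.68 (SE 0.62) for *Coro2a*, -0.13 (SE 0.34) for *Trim14*, 0.16 (SE 0.37) for *Tbc1d2* and -0.08 (SE 0.31) for *Nans*, with adjusted p of 1.00 in edgeR for all 4. The *Coro2a* value rested on 1 O-NR-RC library at 177 CPM, and without it the change was -0.69. An unadjusted p below 0.01 was found for 0.0251% of 31891 genes. O-NR-RC minus O-WT was 0.18 (SE 0.75) for *Coro2a* and between -0.30 and -0.08 for the other 3 genes.

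*Coro2a* tended to be higher in the cohort 1 libraries with lower receptor sums. The O-NR-RC library at 177 CPM had the lowest receptor sum of the 9 (4281 CPM), the O-WT library at 123 CPM had 6124 CPM, and the O-NR libraries at 78.0 and 87.7 CPM had 6185 and 5390 CPM. The 4 libraries with receptor sums of 13740 CPM or more had 44.0, 66.1, 62.4 and 57.2 CPM of *Coro2a*. High and low receptor sums were found in both O-NR and O-NR-RC libraries, and the part of these transcripts in the *Coro2a* values was not tested. The remaining O-WT library, at 65.1 CPM, had a receptor sum of 8731 CPM. *Tbc1d2* varied with *Coro2a*, with 46.8 and 42.1 CPM in the libraries where *Coro2a* was at 123 and 177 CPM and 29.2 to 36.7 CPM in the other 7 (Pearson r = 0.931 over the 9 libraries after the group means were removed, a description). In plain CPM *Trim14* stayed between 33.5 and 42.2 and *Nans* between 30.3 and 34.0. After TMM scaling they ran from 25.4 to 56.9 and from 22.9 to 47.9 scaled CPM, and *Coro2a* from 35.8 to 263.

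**Figure D2:**
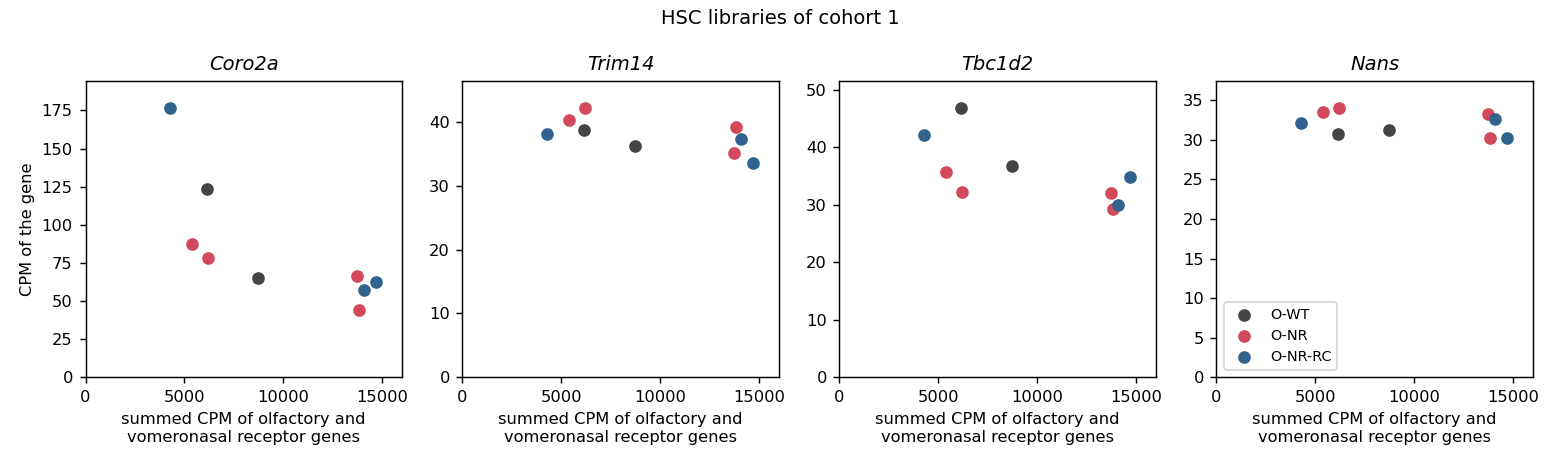
CPM of each gene (vertical axis, from 0) against the summed CPM of 1736 olfactory and vomeronasal receptor genes (horizontal axis) in the 9 HSC libraries of cohort 1; each point is a library, colored by treatment. *Coro2a* runs from 177 CPM at the lowest receptor sum to between 44.0 and 66.1 CPM in the 4 libraries with the highest sums, while *Trim14* stays between 33.5 and 42.2 CPM and *Nans* between 30.3 and 34.0 CPM.

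Across the cell types of untreated mice the genes had separate patterns. *Trim14* was highest in HSCs, with 63.3 ± 8.54 CPM against 34.0 ± 3.36 CPM in CLPs and 21.0 ± 3.17 CPM in GMPs (SD, n = 4 each). The fitted HSC level was above that of CLPs by 1.07 on the log2 scale (SE 0.17) and above that of GMPs by 1.27 (SE 0.17). No p is given, because these O-WT HSCs were the high side of the contrast that chose *Trim14*. In O-NR libraries, the low side, HSCs were above CLPs by 0.53 and above GMPs by 0.78, and the O-WT HSCs of cohort 1 had 36.3 and 38.8 CPM. CLPs and GMPs did not pass the test (0.20, SE 0.17, adjusted p = 0.319 in edgeR), although their plain CPM did not overlap. With library totals alone in place of TMM, a scaling chosen after the values were seen, CLPs were above GMPs by 0.69 (adjusted p = 0.000499 in edgeR).

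*Tbc1d2* was lowest in CLPs. It had 29.2 ± 1.06 CPM in HSCs, 10.3 ± 2.77 CPM in CLPs and 23.4 ± 1.45 CPM in GMPs (SD, n = 4 each). HSCs were above CLPs by 1.70 (SE 0.18, adjusted p = 8.00e-09 in edgeR), CLPs were below GMPs with a log2 difference of -1.73 (SE 0.18, adjusted p = 9.98e-09 in edgeR), and HSCs and GMPs were not told apart (-0.03, SE 0.16, adjusted p = 0.889 in edgeR). *Nans* rose from HSCs to GMPs, with 28.1 ± 2.22 CPM in HSCs, 47.5 ± 4.36 CPM in CLPs and 96.0 ± 10.4 CPM in GMPs. HSCs were below GMPs with a log2 difference of -2.12 (SE 0.17, adjusted p = 4.60e-11 in edgeR), CLPs below GMPs with -1.49 (SE 0.17, adjusted p = 5.83e-08 in edgeR) and HSCs below CLPs with -0.63 (SE 0.17, adjusted p = 0.00484 in edgeR). The last call was lost with a looser filter on low counts, where the difference was -0.45 with an adjusted p of 0.309 in edgeR.

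*Coro2a* had its highest mean in CLPs. It had 120 ± 8.43 CPM in HSCs, 181 ± 26 CPM in CLPs and 90.3 ± 11.3 CPM in GMPs (SD, n = 4 each). CLPs were above GMPs by 0.52 (SE 0.19, adjusted p = 0.0238 in edgeR), a call that was lost in 7 of the 12 fits that left out 1 library, with changes of 0.34 to 0.68: each of the 4 GMP libraries and CLP libraries 1, 2 and 4. With the scaling of DESeq2 in the same edgeR fit it was 0.38 (adjusted p = 0.173). With library totals alone, the scaling chosen after the values were seen, it was 1.01 (adjusted p = 2.72e-06 in edgeR). The median of all genes was then 0.79, so the size of this difference depended on the scaling. In O-NR libraries CLPs were above GMPs by 0.86 (adjusted p = 1.7e-05 in edgeR). HSCs minus CLPs was -0.45 (SE 0.19) and HSCs minus GMPs 0.07 (SE 0.19), given without a p for the same reason as for *Trim14*, and -0.59 and 0.42 with library totals alone.

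Of the flanking genes, *Tbc1d2* was called higher and *Nans* lower in HSCs than in CLPs, where 19.9% of 20044 genes were called higher and 10.4% lower. In HSCs against GMPs only *Nans* of the pair was called, with 21.5% of all genes called higher and 22.6% lower. In CLPs against GMPs 1 of the 4 genes (*Coro2a*) was higher and 2 (*Tbc1d2* and *Nans*) lower, with 32.2% and 28.6% of all genes called. The median fitted change of all genes was -0.08, 0.31 and 0.28 in these 3 comparisons, and it was -0.23, 0.68 and 0.79 with library totals alone.

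**Figure D3:**
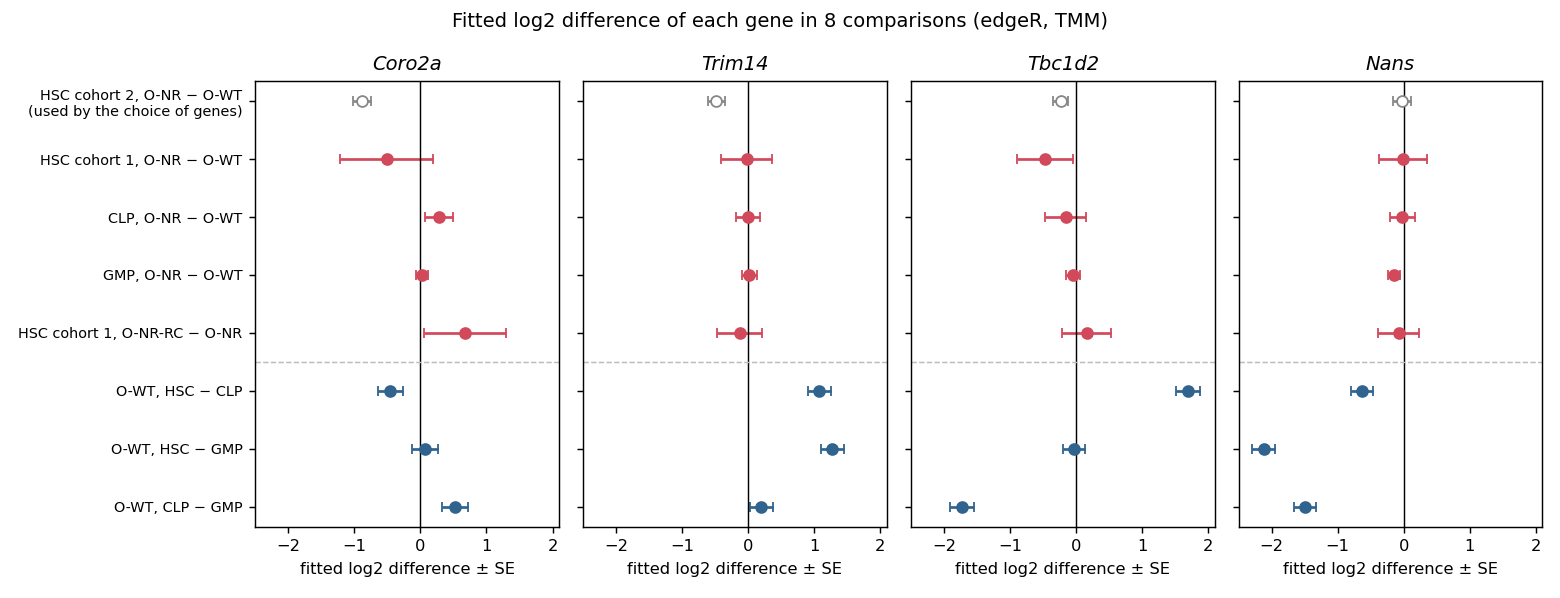
Fitted log2 difference of each gene (horizontal axis, edgeR with TMM scaling) in 8 comparisons (rows); points are estimates and bars are ± 1 SE. Open gray points are the HSC contrast of cohort 2 that chose the genes, red points are the tested NR and withdrawal comparisons, which lie within 2 SE of 0, and blue points are cell type comparisons in O-WT, which reach -2.12 for *Nans* and 1.70 for *Tbc1d2*.

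Levels were also set per kilobase of exon with TMM scaling. In O-WT HSCs of cohort 2, the high side of the contrast that chose them, *Coro2a* and *Trim14* were the most abundant of the 4. They had 17.6 ± 4.85 and 14.0 ± 4.94 scaled CPM per kb (SD, n = 4), which overlap in their spread. *Nans* followed at 5.71 ± 1.03 and *Tbc1d2* at 5.06 ± 1.19, which overlap as well. In O-WT HSCs of cohort 1 (n = 2) *Coro2a* was at 16.2 ± 8.16 and *Trim14* at 9.45 ± 1.16. There *Tbc1d2* had 8.45 ± 2.07 and *Nans* 7.37 ± 0.472, so *Trim14* did not stand apart. In CLPs *Coro2a* led with 23.8 ± 7.81 scaled CPM per kb, and *Tbc1d2* was lowest with 1.52 ± 0.212. In GMPs *Nans* led with 24.8 ± 2.67, above *Coro2a* at 16.6 ± 2.56. In O-NR HSCs of cohort 2 *Coro2a* and *Trim14* were at 9.97 ± 2.21 and 10.4 ± 2.26 scaled CPM per kb, within each other's spread.

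Next, the other genes around *Coro2a* were examined, since the 4 are neighbors. The annotation holds 45 genes with a start within 1 Mb of that of *Coro2a*, all of them in the files, and 24 had counts above the filter in HSCs of cohort 2. Their fitted changes with NR in these HSCs had a median of -0.10 and were below 0 in 66.7%, against a median of -0.01 and 51.2% over all genes. The 4 chosen genes are among them and all have fitted changes below 0, and the other 20 had a median of -0.06 with 60.0% below 0, from which nothing is read. Besides *Coro2a*, *Trim14* and *Tbc1d2*, none of the 24 had O-NR libraries below all O-WT libraries. *Hemgn*, a nuclear protein of blood progenitors with its start at -188.7 kb from that of *Coro2a*, changed by -0.61 (SE 0.16), with 25.4 to 41.2 CPM in O-WT and 16.1 to 26.7 CPM in O-NR. *Anp32b*, which lies between *Hemgn* and *Nans*, changed by -0.04 (SE 0.19). By position, *Anp32b* and *Nans*, both near 0, start between *Hemgn* and *Trim14*.

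In the comparisons that did not choose the genes, no neighbor had an unadjusted p below 0.01, with 26 tested in CLPs, 21 in GMPs and 35 in cohort 1. The smallest unadjusted p in CLPs was 0.106, for *Tgfbr1*, a receptor of TGF-beta (0.29), and in GMPs 0.0835, for *Anp32b* (-0.26), with adjusted p of 1.00 and 0.997 in edgeR. Between cell types the genes of this stretch went both ways, with 7 higher and 6 lower in HSCs than in GMPs among 26 tested. Over all genes 21.5% and 22.6% were called in these directions. The 26 include the 4 chosen genes, with *Trim14* among the higher, through the O-WT HSCs that chose it, and *Nans* among the lower. Nothing is therefore read from these counts. *Hemgn* was higher in HSCs than in GMPs by 2.55 and than in CLPs by 1.93, and *Sec61b*, a subunit of the translocation channel of the endoplasmic reticulum, was lower in HSCs than in GMPs with -2.42, each below an adjusted p of 0.05 in edgeR.

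**Figure D4:**
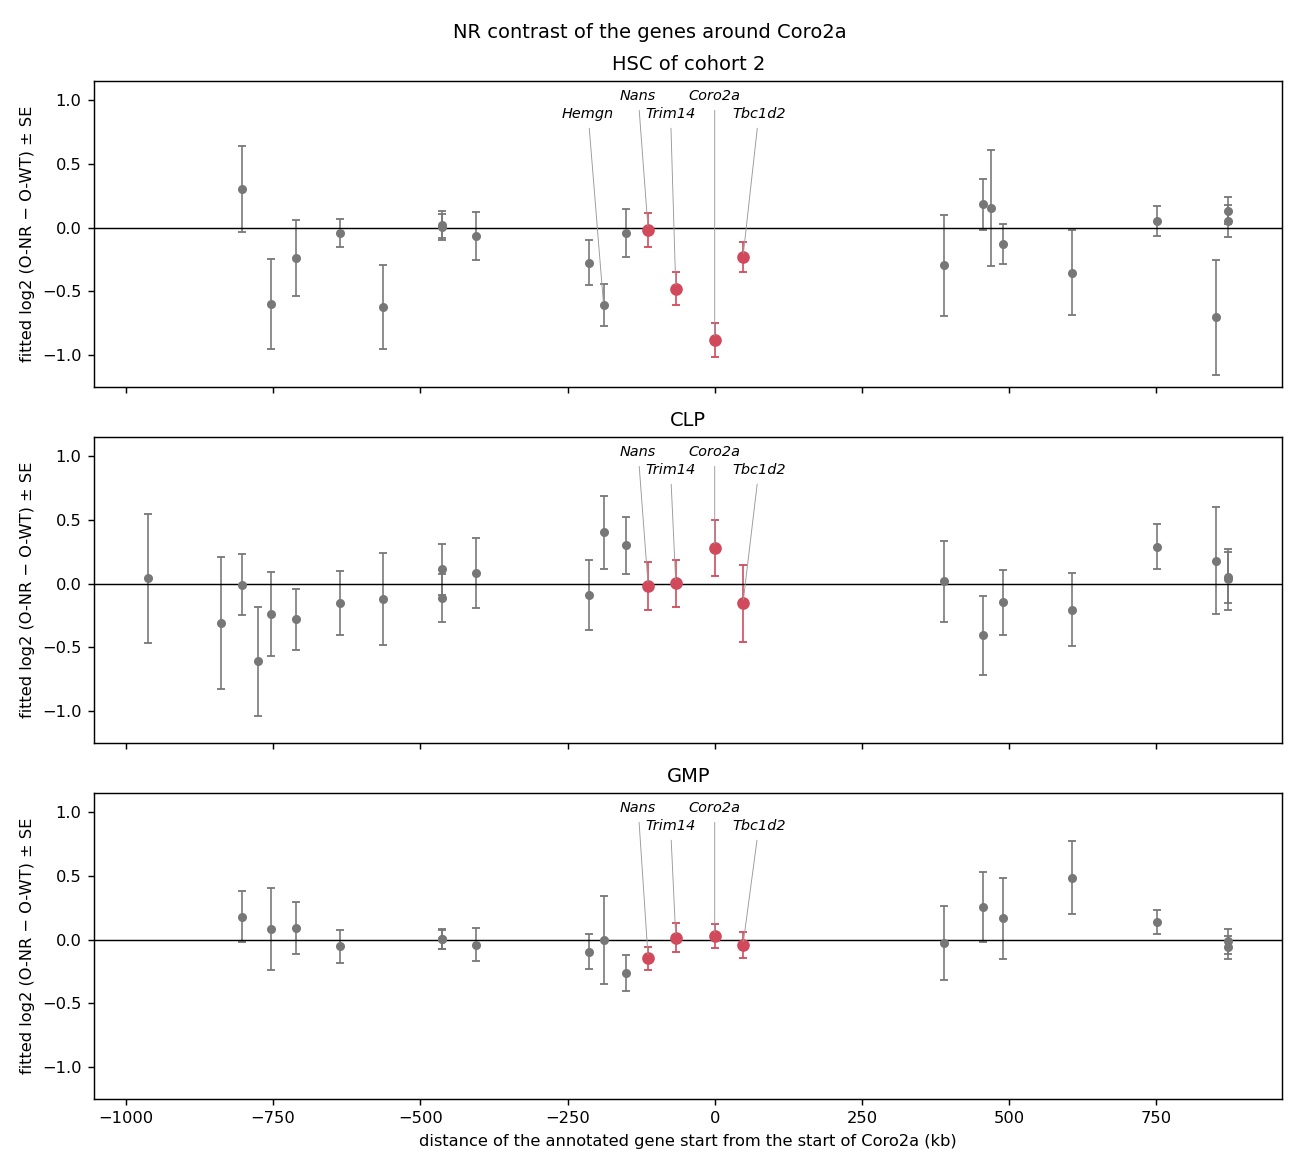
Fitted log2 change with NR (vertical axis, ± 1 SE) of genes within 1 Mb of *Coro2a* against the distance of their start from that of *Coro2a* in kb (horizontal axis), in HSCs of cohort 2 (top), CLPs (middle) and GMPs (bottom). The 4 genes are red; *Coro2a* is at -0.88 in HSCs with *Trim14* at -0.48 and *Hemgn* at -0.61, whereas in CLPs and GMPs no gene passed the test.

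The relatives and partners of each gene are described from lists chosen with earlier results of these data known. Of the 6 coronins above the filter on low counts, *Coro2a* had the only fitted change below 0 in HSCs of cohort 2. This contrast chose *Coro2a*, so nothing is read from its place among the coronins. *Coro1a*, the main coronin of leukocytes, changed by 0.19 (SE 0.12), with 124.8 ± 11.8 CPM in O-WT and 137.7 ± 6.59 CPM in O-NR (SD, n = 4 each), *Coro7* by 0.17 (SE 0.12), and *Coro6*, the other listed coronin, was below the filter. The median of the 6 was 0.07, against -0.01 over all genes. No coronin had an unadjusted p below 0.01 with NR in CLPs, in GMPs or in cohort 1. In untreated mice *Coro1a* was lower in HSCs than in GMPs (-1.14, adjusted p = 3.5e-05 in edgeR) and *Coro2b* higher (1.67, adjusted p = 2.1e-06 in edgeR), and both kept their direction and call with the scaling of DESeq2 and with library totals alone.

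Other genes of the NCoR complex had fitted changes with NR in HSCs of cohort 2 of 0.02 for the corepressor *Ncor1*, 0.08 for the deacetylase *Hdac3*, 0.22 for *Tbl1x*, 0.06 for *Tbl1xr1* and -0.04 for *Gps2*, against -0.88 for *Coro2a*. Since this contrast chose *Coro2a*, nothing is read from its distance to the other genes. None of these 6 genes passed an unadjusted p of 0.01 with NR in CLPs, GMPs or cohort 1. In untreated mice *Ncor1*, *Gps2* and *Tbl1xr1* were lower in HSCs than in GMPs, with log2 differences of -0.58, -0.52 and -0.72, each below an adjusted p of 0.05 in edgeR. *Gps2* did not pass the test with library totals alone (adjusted p = 0.225 in edgeR).

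*Trim14* was set beside 16 other genes of RIG-I, MAVS and cGAS-STING signaling. In HSCs of cohort 2 the 17 genes had a median change of 0.03, and 5 were below 0. *Trim14* is among the 5 through the contrast that chose it, so nothing is read from its place among them. The RNA sensors *Ddx58* (RIG-I) and *Ifih1* (MDA5) changed by 0.02 and 0.10, the adaptor *Mavs* by 0.17, and *Trim25*, the ubiquitin ligase of RIG-I, by -0.23. In GMPs, *Ifih1* was higher with NR, with 16.3 to 19.3 CPM in O-WT and 21.6 to 23.8 CPM in O-NR (0.30, unadjusted p = 0.0076 in edgeR), and *Mavs* was lower, with 21.6 to 23.3 CPM in O-WT and 15.4 to 19.8 CPM in O-NR (-0.32, unadjusted p = 0.0074 in edgeR). Neither passed adjustment over all genes (adjusted p = 0.9 in edgeR), and no gene of the list had an unadjusted p below 0.01 in CLPs or cohort 1.

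By cell type, the RNA sensors of this list were higher in HSCs. *Ifih1* was above CLPs by 2.13 and above GMPs by 1.73, *Ddx58* by 1.26 and 1.90, and *Dhx58* by 0.61 and 1.152, each below an adjusted p of 0.05 in edgeR. *Dhx58* against CLPs missed it with library totals alone (adjusted p = 0.0672). The DNA sensor *Cgas* was lower in HSCs than in CLPs (-0.95) and GMPs (-1.59), and *Tmem173*, which encodes STING, was lower too (-1.26 and -0.87). Of the 17 genes, *Trim14* included, 8 were higher and 3 lower in HSCs than in CLPs. Over all genes 19.9% and 10.4% were called in these directions. Against GMPs 5 were higher and 5 lower in HSCs, near the 21.5% and 22.6% of all genes. *Trim14* is among the higher genes of both counts through the O-WT HSCs that chose it, so nothing is read from its part in them. The medians were 0.42 and -0.03, against -0.08 and 0.31 over all genes. With library totals alone the counts against GMPs were 9 higher and 4 lower.

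For *Tbc1d2*, 12 other genes around RAB7 were listed. In HSCs of cohort 2 the 13 genes had a median change of 0.06, *Rab7* itself changed by 0.17 and the related *Tbc1d2b* by -0.05. None of them had an unadjusted p below 0.01 with NR in CLPs, GMPs or cohort 1. With *Tbc1d2* itself counted, calls went mostly 1 way in each comparison of cell types with TMM scaling. In CLPs 9 of the 13 were lower than in GMPs and none higher, with a median of -0.84 against 0.28 over all genes. In HSCs 7 were higher than in CLPs against 1 lower. *Tbc1d2* is among the 9 and among the 7. Against GMPs, 1 was higher and 6 were lower in HSCs, with a median of -0.23 against 0.31 over all genes. *Tbc1d2* was not called there. Of all genes, 21.5% were called higher and 22.6% lower in HSCs than in GMPs. Library totals alone gave 4 higher and 5 lower of the list in HSCs than in GMPs. Over all genes 28.6% were called lower and 32.2% higher in CLPs than in GMPs, and 19.9% higher and 10.4% lower in HSCs than in CLPs. With library totals alone 7 were lower and 4 higher in CLPs than in GMPs, with a median of -0.35 against 0.79 over all genes, and with the scaling of DESeq2 3 were higher and 1 lower in HSCs than in CLPs. *Rab7* was below GMPs in CLPs with -1.35, *Tbc1d2b* with -1.58 and *Ccz1*, a part of the complex that activates RAB7, with -0.99. *Tbc1d5*, a RAB7 GAP of the retromer, was the exception among HSCs against CLPs, with -0.59.

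*Nans* was set beside 17 other genes of sialic acid synthesis and use, of which 16 had counts above the filter. In HSCs of cohort 2 the 17 tested genes, *Nans* included, had a median change of -0.02, with 9 below 0, and none had an unadjusted p below 0.01 with NR in CLPs, GMPs or cohort 1. The enzyme before NANS shared part of its cell type pattern. Like *Nans*, *Gne*, which starts the pathway, was lower in HSCs (-0.65) and in CLPs (-0.97) than in GMPs. Between HSCs and CLPs *Gne* did not pass the test (0.32, adjusted p = 0.129 in edgeR). *Cmas*, which activates sialic acid, was higher in HSCs than in GMPs (0.93). The sialyltransferase *St6gal1*, which caps N-glycans of lymphocytes, was lower in HSCs than in CLPs with -3.41, and *St3gal1*, which acts on O-glycans, was higher in HSCs than in CLPs (3.40) and GMPs (2.69), each below an adjusted p of 0.05 in edgeR.

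Finally, the genes whose levels varied most like each of the 4 were found over the 33 libraries, after the mean of each group was removed, among 18020 genes. They share libraries, depth and scaling, so the correlations are a description. For *Coro2a* these included *Ddi2* (Pearson r = 0.913) and *Ddx6* (0.906), an RNA helicase of P-bodies. For *Trim14* they were *Rab11fip3* (0.759), *Pglyrp2* (0.718) and *Susd3* (0.713), for *Tbc1d2* *Dennd1c* (0.823), *Tmem71* (0.791) and *Pla2g4a* (0.736), and for *Nans* *Rcc1* (0.740), *Dph2* (0.716) and *Spata2* (0.713). None of the genes named is a neighbor within 1 Mb. Between the 4 genes themselves r over the 33 libraries was 0.119 for *Coro2a* and *Trim14*, 0.298 for *Coro2a* and *Tbc1d2*, and -0.401 for *Tbc1d2* and *Nans*. These values hide differences between sets of libraries: for *Coro2a* and *Tbc1d2* r was 0.931 in HSCs of cohort 1, -0.341 in HSCs of cohort 2 and -0.485 in CLPs, and for *Tbc1d2* and *Nans* -0.898 in HSCs of cohort 2 and 0.137 in those of cohort 1. In HSCs of cohort 2 the O-NR libraries were below the O-WT libraries for *Ddi2*, by a small gap, and not for *Ddx6*. *Ddi2* had 72.0 to 76.1 CPM in O-WT and 63.7 to 71.9 CPM in O-NR, and *Ddx6* 208 to 232 and 210 to 254 CPM.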

How the data were processed

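Total RNA was sequenced with a stranded kit in 33 libraries. Reads were trimmed, mapped to mm10 with STAR and assigned to Gencode M22 genes by featureCounts, and the authors deposited the resulting whole-number counts, without normalization, for 55376 symbols. How strand and multi-mapping reads were handled is not given in the sources used here. Groups were taken from the sample labels.

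Levels are CPM, each count divided by the library total. Groups were compared with edgeR 4.0.16 (R 4.3.3), TMM scaling and the quasi-likelihood test, among genes above 3 CPM in a number of libraries equal to the size of the smaller group. P-values were adjusted by the Benjamini-Hochberg method over all genes tested, and a gene was called at an adjusted p below 0.05. Counts with NR use an unadjusted p below 0.01, after the thresholds of the study. DESeq2 1.42.0, its size factors, looser filters on low counts, a replicate block, 1 model over 24 libraries, O-NR in place of O-WT libraries, leaving out each library and, added after the values were seen, library totals alone were alternatives. RUV, a correction for unwanted variation that the study lists among its software, was not run here because its settings are not given.

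The genes named are the 4 members, the genes of 6 lists (their members past the test, otherwise the 2 with the smallest p in each comparison, with further members of the lists chosen after their values were seen), markers, and for each member the 3 genes with the highest Pearson r of log2 CPM (prior count 2). Some genes that these rules name are not reported here. The members and lists were chosen with earlier results of these data known. The fits were tested on simulated data. Libraries of 1 group differed by more than sampling noise, so all were counted. Annotation is Gencode M21 (GRCm38).

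Same-numbered HSC, CLP and GMP libraries of 1 treatment carry the same identifying number in their file names and are taken as cells of the same mice, whereas O-WT and O-NR libraries with 1 number are different mice. The deviations of same-numbered O-WT libraries from their group means correlated on average at 0.31 for HSCs and CLPs, -0.21 for HSCs and GMPs and -0.16 for CLPs and GMPs.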

Additional observations from a re-analysis of the deposited data

Results flagged for a closer look

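Among 28 sets of 4 libraries (each gene in each group of 4), the gap of the highest or lowest library to its neighbor was large against the range in 1 set. *Tbc1d2* in O-WT GMPs had 1 library at 25.6 CPM, with the other 3 between 22.6 and 23.0 CPM. Chance flags about 1 in 20 such sets.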

How the results depend on the processing

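None of the 388 alternative values of the 4 genes for NR, withdrawal or the interaction had an adjusted p below 0.05 in edgeR or DESeq2. Of all 826 alternative values 660 kept direction and side of the threshold or stayed within 1.5 times, 95 reversed, 52 counts moved, 14 lost a call and 5 gained one. The NR contrast in HSCs of cohort 2 had another rule, as it had no test. Its values counted among the 660 when they moved by less than the SD of log2 CPM within groups. A change of sign there counted as reversed only where the report's value exceeded that SD, so those of *Nans* (-0.02) did not. Where no value shows it, the cause was not tested.

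With the size factors of DESeq2, log2 changes with NR were 0.0148 for *Nans* in CLPs, 0.0108 for *Trim14* and 0.0238 for *Nans* in cohort 1, and -0.0880 for *Trim14* and -0.0100 for *Tbc1d2* in GMPs minus CLPs. *Coro2a* was -0.1155 in HSCs minus GMPs and 0.3838 in CLPs minus GMPs. Genes with an unadjusted p below 0.01 numbered 34 with NR in cohort 1, 13 in O-NR-RC minus O-NR and 71 in O-NR-RC minus O-WT, against 16, 8 and 26. With DESeq2 itself these values were 0.0149, 0.0108, 0.0238, -0.0881, -0.0115, -0.1155 and 0.3837, the counts 64, 18 and 106, and that of GMPs minus CLPs 123 against 80.

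With a filter at 1 CPM, *Nans* in CLPs was 0.0110, *Trim14* and *Tbc1d2* in GMPs minus CLPs -0.1233 and -0.0534, *Nans* in HSCs minus CLPs -0.4504, and *Coro2a* and *Trim14* in CLPs minus GMPs 0.3046 and -0.0368. Counts were 136 in CLPs (82 in the report's fit), 56, 25 and 79 in the comparisons of cohort 1, and 187 in GMPs minus CLPs. With no filter the same values were 0.0230, -0.1388, -0.0736, -0.5532, 0.2073 and -0.1247, *Coro2a* and *Trim14* with NR in GMPs -0.0182 and -0.0175, and *Coro2a* in HSCs minus GMPs -0.1702. Counts were then 336 in CLPs, 366 in GMPs (133), 80, 56 and 100 in cohort 1 and 486 in GMPs minus CLPs. More genes were tested in these fits.

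With a replicate block, *Trim14* and *Nans* with NR in CLPs were -0.0030 and 0.0012 with 185 genes counted, *Nans* in O-NR-RC minus O-NR 0.0250 and *Coro2a* in O-NR-RC minus O-WT -0.0012. The block changed no call of the 4 genes. O-WT and O-NR libraries share only a number, and their same-numbered deviations correlated at 0.142, 0.039 and 0.060 on average in HSCs, CLPs and GMPs of cohort 2. In 1 model over 24 libraries *Nans* in CLPs was 0.0524, and 268 genes in CLPs and 25 in GMPs were counted. In O-NR libraries *Coro2a* was -1.68 in HSCs minus CLPs and -0.8205 in HSCs minus GMPs, and these HSCs are those that chose the gene.

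With library totals alone, which moved the median of all genes by over 0.1, *Trim14* with NR was -0.1272 in CLPs and 0.0645 in cohort 1, *Nans* 0.0810 in cohort 1, 0.0316 in O-NR-RC minus O-WT and 0.0096 in GMPs minus CLPs. *Coro2a* was -0.5898 in HSCs minus CLPs and 0.4158 in HSCs minus GMPs, *Tbc1d2* 0.3181 in HSCs minus GMPs and *Trim14* 0.6902 in CLPs minus GMPs. Only 4 genes were counted with NR and 4 in O-NR-RC minus O-WT. Calls higher in the first of HSCs against CLPs, HSCs against GMPs and CLPs against GMPs were 3986 of 6066, 4319 of 8850 and 6447 of 12184, with the size factors of DESeq2 3199 of 5617, 3356 of 8380 and 5880 of 12021, and with library totals alone 3382 of 6169, 6861 of 10206 and 10538 of 13567.

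Leaving out 1 library at a time gave a range of log2 values for each comparison. For NR in CLPs it was 0.1262 to 0.4185 for *Coro2a*, -0.0725 to 0.1026 for *Trim14*, -0.2192 to -0.0547 for *Tbc1d2*, -0.1462 to 0.0889 for *Nans*, with 43 to 149 genes counted. For NR in GMPs it was -0.0478 to 0.0910 for *Coro2a*, -0.0681 to 0.0747 for *Trim14*, -0.1288 to 0.0060 for *Tbc1d2*, -0.2091 to -0.0925 for *Nans*, with 62 to 292 genes counted. For NR in cohort 1 it was -0.9611 to 0.1257 for *Coro2a*, -0.1672 to 0.1110 for *Trim14*, -0.7060 to -0.1881 for *Tbc1d2*, -0.1518 to 0.1125 for *Nans*, with 4 to 47 genes counted. For O-NR-RC minus O-NR it was -0.6917 to 1.0765 for *Coro2a*, -0.5867 to 0.0751 for *Trim14*, -0.4406 to 0.4159 for *Tbc1d2*, -0.4937 to 0.1093 for *Nans*, with 5 to 135 genes counted. For O-NR-RC minus O-WT it was -1.2042 to 0.8224 for *Coro2a*, -0.6101 to 0.0527 for *Trim14*, -0.9041 to -0.0195 for *Tbc1d2*, -0.5031 to 0.1006 for *Nans*, with 5 to 484 genes counted. For GMPs minus CLPs it was -0.4605 to -0.1126 for *Coro2a*, -0.1530 to 0.0638 for *Trim14*, -0.0754 to 0.1328 for *Tbc1d2*, -0.3037 to -0.0051 for *Nans*, with 39 to 245 genes counted. For HSCs minus CLPs it was -0.6112 to -0.3097 for *Coro2a*, 0.9411 to 1.2182 for *Trim14*, 1.6086 to 1.7811 for *Tbc1d2*, -0.7584 to -0.5167 for *Nans*, with 4624 to 6972 genes counted. For HSCs minus GMPs it was -0.1128 to 0.1262 for *Coro2a*, 1.0537 to 1.3829 for *Trim14*, -0.1828 to 0.0215 for *Tbc1d2*, -2.2341 to -2.0638 for *Nans*, with 7259 to 9761 genes counted. For CLPs minus GMPs it was 0.3366 to 0.6784 for *Coro2a*, 0.0352 to 0.2664 for *Trim14*, -1.8821 to -1.6190 for *Tbc1d2*, -1.6483 to -1.3651 for *Nans*, with 8924 to 13534 genes counted. The highest counts in both O-NR-RC comparisons came without O-NR-RC library 1. Where an O-WT library of cohort 1 was left out, the lone one left was assumed to vary like the other groups. In HSCs of cohort 2 *Nans* ranged from -0.1438 to 0.0535.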
